A study of Drosophila melanogaster with 2 samples.

Results

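Sry-delta peaks at divergent promoters, where 2 protein-coding genes start back to back on opposite strands, made up 1901 of the 6318 peaks in the authors' optimal set (30.1%, exact 95% interval 29.0% to 31.2%). A peak was a member when its summit, the deposited point of highest signal, lay within 500 bp of a coding start on the plus strand and within 500 bp of a coding start of another gene on the minus strand, with the minus-strand start to the left. The members lay at 1645 such gene pairs and touched 3130 genes. The data are chromatin immunoprecipitation with sequencing (ChIP-seq) from whole Drosophila melanogaster embryos of both sexes, 0 to 24 h old, sonicated to 200 to 800 bp. Both libraries, labelled biological replicates 3 and 4, came from a fly line that stably carries a transgene for Sry-delta with enhanced green fluorescent protein (eGFP) at its C-terminal end, and an antibody against GFP was used for the precipitation. There was 1 group, so no genotype, treatment or stage was contrasted, and the embryos mix all tissues and stages of that day, so binding in more cells and more binding per cell cannot be told apart. A control experiment is named in the labels, but no control library was analysed here. The labels do not say whether the flies kept their own Sry-delta gene, and extra gene copies carried by the tagging construct could raise signals around that gene on 3R.

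In a divergent promoter the sequence between the starts serves both genes, and in the compact fly genome such pairs are common among genes that most cells use. Sry-delta is a zinc finger protein with a ZAD dimerisation domain. Many broadly used fly promoters lack a TATA box and carry other core elements, among them the DNA replication-related element (DRE), a site of both BEAF-32, an insulator protein, and DREF, a transcription factor, and Motif 1, bound by M1BP.

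The sequences between the starts are shown for 6 pairs, chosen among members on the chromosome arms from which sequence is shown, with a stretch between the starts of at most 300 bp that held no exon. For each of the 5 main motifs, in the order given here, the highest-signal pair not already taken was used, followed by the highest with none of the 5. They are the plus strand of genome build dm6, read 5′ to 3′ from the base after the minus-strand start to the base before the plus-strand start. Capitals mark the motif for which each is shown. Other motifs of the 5 are not marked. Motif 7 is also present in the Atat/Shc, Atg8a/BTBD9 and Vps36/Liprin-beta stretches, the Sry-delta consensus in that of Atat/Shc and DRE in that of grsm/Spc25. In the CG1105/CG1965 stretch Motif 7 lies inside the marked consensus match, on the other strand. Atat, for an alpha-tubulin acetyltransferase, and Shc, for a signalling adaptor, flank chr3L:9426759-9427009, whose DRE reads TATCGATA. Atg8a, for a ubiquitin-like protein of autophagy, and BTBD9 flank chrX:10768339-10768536, with Motif 1 (GGTCACAC) once on each strand. Vps36, for an ESCRT-II sorting subunit, and Liprin-beta flank chr3L:13513113-13513253, with 1 match to Motif 6 (GTATNTTT). The genes grsm and Spc25, the second for a kinetochore subunit, flank chr3R:12961644-12961744, with 1 match to Motif 7 (CANCNCTA). CG1105 and CG1965 flank chr3R:7067137-7067400, with 1 match to the in vitro Sry-delta consensus with up to 2 mismatches, which lies far to the left of the summit at base 176. PolG2, for the accessory subunit of the mitochondrial DNA polymerase, and Polr2C, for an RNA polymerase II subunit, flank chr2L:13833106-13833336, which holds none of the 5.
Atat/Shc, DRE: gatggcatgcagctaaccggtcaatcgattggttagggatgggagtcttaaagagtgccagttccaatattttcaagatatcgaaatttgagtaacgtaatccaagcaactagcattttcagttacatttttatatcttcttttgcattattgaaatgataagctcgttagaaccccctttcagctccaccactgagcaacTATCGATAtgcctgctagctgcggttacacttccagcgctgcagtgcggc
Atg8a/BTBD9, Motif 1: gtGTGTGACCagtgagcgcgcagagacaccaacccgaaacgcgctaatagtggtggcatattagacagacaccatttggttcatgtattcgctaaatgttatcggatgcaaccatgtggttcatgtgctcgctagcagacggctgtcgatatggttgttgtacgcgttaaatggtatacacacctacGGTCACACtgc
Vps36/Liprin-beta, Motif 6: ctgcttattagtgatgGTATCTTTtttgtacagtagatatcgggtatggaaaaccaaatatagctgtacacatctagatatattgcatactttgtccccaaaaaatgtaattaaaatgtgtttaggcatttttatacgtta
grsm/Spc25, Motif 7: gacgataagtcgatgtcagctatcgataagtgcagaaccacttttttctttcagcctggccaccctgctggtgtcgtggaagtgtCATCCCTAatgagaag
CG1105/CG1965, Sry-delta consensus: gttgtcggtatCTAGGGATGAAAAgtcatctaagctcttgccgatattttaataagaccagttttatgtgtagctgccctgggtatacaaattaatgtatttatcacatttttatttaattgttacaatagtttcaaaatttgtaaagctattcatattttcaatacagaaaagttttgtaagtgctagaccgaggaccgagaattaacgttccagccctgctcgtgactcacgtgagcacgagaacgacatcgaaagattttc
PolG2/Polr2C, none of the 5: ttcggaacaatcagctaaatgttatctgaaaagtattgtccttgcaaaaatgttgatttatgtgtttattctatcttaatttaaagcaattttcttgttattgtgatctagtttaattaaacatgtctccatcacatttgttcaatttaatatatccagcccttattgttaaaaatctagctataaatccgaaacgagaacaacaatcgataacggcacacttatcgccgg

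The deposited peak signal of these 6 members, the authors' own measure of peak height, with 1 scale for each list, was of the same order in both embryo collections. Atat/Shc had 2224 in replicate 3 and 2901 in replicate 4. Atg8a/BTBD9 had 1600 and 1758 in the same order, and Vps36/Liprin-beta had 1584 and 2274. The grsm/Spc25 peak, whose 101 bp also hold a DRE, had 2015 in replicate 3 and 2553 in replicate 4. CG1105/CG1965 had 1827 in replicate 3 and 2634 in replicate 4, and PolG2/Polr2C had 780 and 1150. The member without any of the 5 motifs was the lowest of the 6 in both libraries, and ranked 311 in the optimal set against ranks of 10 to 67 for the others.

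Divergent promoter peaks were higher than peaks at promoters with coding starts on 1 strand only. In replicate 3 the median signal was 166 at divergent promoters and 114 at these one-direction promoters, judged by the same 500 bp. In replicate 4 the medians were 230 and 158, and in the optimal set 374 (quartiles 193 and 848, n = 1901) and 265 (quartiles 153 and 595, n = 2865). The ratio of medians was 1.46 in each replicate and 1.41 in the optimal set, so the difference had the same direction and size in both libraries, while the quartile ranges of the classes overlapped widely. One-direction peaks upstream of their start had a median of 287, those downstream 196, and the 1535 peaks away from any coding start 153. Signals in the replicates were taken from the peak nearest to each optimal summit within 100 bp, found for 1859 members in replicate 3 and 1872 in replicate 4. No read totals were used, and library depth is unknown.

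**Figure D1:**
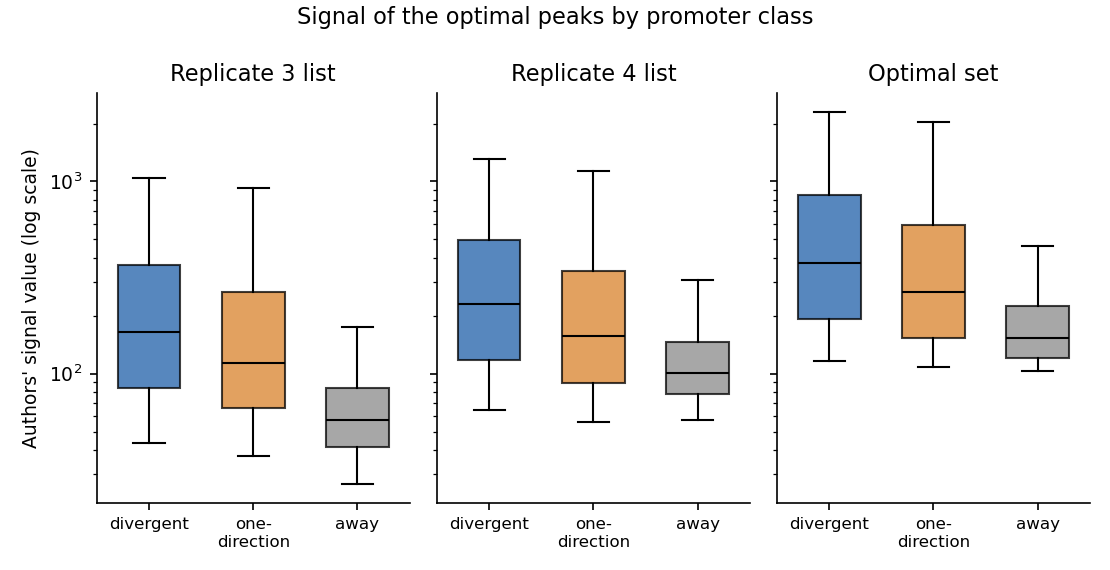
Signal of the optimal peaks (authors' value, log scale) in the replicate 3 list, the replicate 4 list and the optimal set, for peaks at divergent promoters, at one-direction promoters and away from coding starts. Boxes show quartiles and medians and whiskers the 5th and 95th percentiles; the divergent median is the highest of the 3 in every panel, at 166 in replicate 3, 230 in replicate 4 and 374 in the optimal set.

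The share of divergent promoters was highest among the strongest peaks. It was 15.7% of peaks ranked 5001 to 6318 by signal, 22.3% of ranks 4001 to 5000, 25.2% of ranks 3001 to 4000 and 31.5% of ranks 2001 to 3000. It was 44.5% of ranks 1001 to 2000, 45.2% of both ranks 501 to 1000 and ranks 101 to 500, and 52 of the first 100 (exact 95% interval 41.8% to 62.1%). The share was thus nearly level over ranks 101 to 2000 and lower in each bin below. Replicate agreement was also high for them: 96.4% of the members overlapped one of the 6318 highest peaks of replicate 3 and 98.1% one of those of replicate 4, by at least 1 bp. The corresponding values were 91.9% and 95% for one-direction peaks, and 70.8% and 91.5% for peaks away from starts. The optimal set was itself selected from these lists for reproducible ranks, so these overlaps are not independent of it. The median log2 ratio of replicate 4 over replicate 3 was 0.42 at divergent promoters (SD over peaks 0.54), 0.39 at one-direction promoters and 0.91 away from starts.

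The 15 highest divergent peaks had optimal signals of 4110 to 7028. The highest was at RpL32, for a protein of the large ribosomal subunit, and CG7943 (3R, 30045731 to 30047037), where the signal was 3089 in replicate 3 and 4003 in replicate 4. This pair lies beside the Sry-delta gene, where the tagging construct may add copies, and the effect of such copies was not tested. Rpn6, for a subunit of the proteasome lid, and ave, for an adaptor in Ras signalling, shared a peak (2R, 14751882 to 14752943) of 2831 and 3380 in replicates 3 and 4. Sec61alpha, for the pore of the endoplasmic reticulum translocon, and Daxx, for a histone chaperone, shared one of 2395 and 3080. Each of these 3 ranked 1 to 10 in both libraries.

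Of the other peaks in this group, CG11180 and FAM21 (a WASH complex subunit) shared signals of 2631 in replicate 3 and 3200 in replicate 4. The peak of mRpL47 (mitochondrial ribosome) and CG8176 had 2612 and 3189, and a start of Kdm3 lies within the same 500 bp. EMC1, for a subunit of the endoplasmic reticulum membrane complex, and Taf7, for a subunit of the initiation factor TFIID, had 1603 in replicate 3 and 2831 in replicate 4. That pair ranked 46 in replicate 3 and 12 in replicate 4, the widest difference in rank among the 15. Fkbp39 (a prolyl isomerase) and Cyfip (a WAVE complex subunit) had signals of 2209 and 2216, at rank 13 in replicate 3 and 33 in replicate 4. Rab30 (a small GTPase) and Caper (a splicing factor) had 2052 and 2137, at ranks 18 and 36 in the same order. Sf3a1, for a component of the U2 particle of the spliceosome, and Irc, for a catalase, had 2124 in replicate 3 and 2418 in replicate 4 although their starts lie 520 bp apart. The remaining 3 pairs of the 15 were CG15118/CG15111, lectin-22C/Su(dx), where Su(dx) encodes a ubiquitin ligase that acts on Notch, and MnM/Girdin, where Girdin encodes an actin-binding protein. CG15118/CG15111 had 1873 in replicate 3 and 2789 in replicate 4, lectin-22C/Su(dx) had 2001 and 2640, and MnM/Girdin had 1796 and 2333.

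At the other end of the set, the 3 lowest members had optimal signals of 99.8 to 99.9. CG6195/CG31220 had 30.6 in replicate 3 and 76.7 in replicate 4, and Nbr (a 3′ to 5′ exonuclease) and Noc2 (ribosome assembly) had 21.3 and 82.4. Pex16 and Pex14, both for peroxisome assembly proteins, shared a peak of 29.2 in replicate 3 and 48.8 in replicate 4. In replicate 3 these ranked 8885, 13328 and 9299, so all 3 were outside its 6318 highest peaks. The Pex16/Pex14 peak, at rank 7719, was outside those of replicate 4 as well. The rule on distance had no clear edge in signal. The 80 members whose farther start was 451 to 500 bp away had a median of 427 (quartiles 145 and 1001), and the 69 summits just outside, at 501 to 550 bp, had a median of 237 (quartiles 149 and 938).

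Most summits lay in the space between the pair of starts. This held for 1518 of 1901 summits (79.9%, exact 95% interval 78.0% to 81.6%), with 143 inside the minus-strand gene and 240 inside the plus-strand gene. The starts were a median of 275 bp apart and the nearest start a median of 50 bp from the summit. Counting 1 summit for each peak region (same start and end), 1606 regions remained as members, and 83.2% of these summits were between the starts. With starts more than 500 bp apart the rule itself places every summit between them (108 of 108 regions). With starts 1 to 50 bp apart, 46 of 129 regions (35.7%) had the summit between them. Of the 1523 nearest pairs, 1150 had 1 summit, 368 had 2 and 5 had more.

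Summits did not simply sit at the centre of the gap. With starts 51 to 100 bp apart, the summit was a median of 20.5 bp from the midpoint and 24 bp from the nearest start. With starts 401 to 500 bp apart, it was 170 bp from the midpoint and 53 bp from the nearest start, so it stood near 1 gene of the pair. The highest summits of the regions showed little preference for a strand, with 52.2% nearer the plus-strand start and 47.2% nearer the minus-strand start. The 295 secondary summits did: 77.6% were nearer the plus-strand start, and 93.9% lay to the right of the highest summit of their region, by a median of 205 bp. By the rule the plus-strand start is always on the right, so a side of genome coordinates and a side of the plus-strand gene cannot be told apart. The cause was not tested. Sequence results below therefore use 1 summit for each region.

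**Figure D2:**
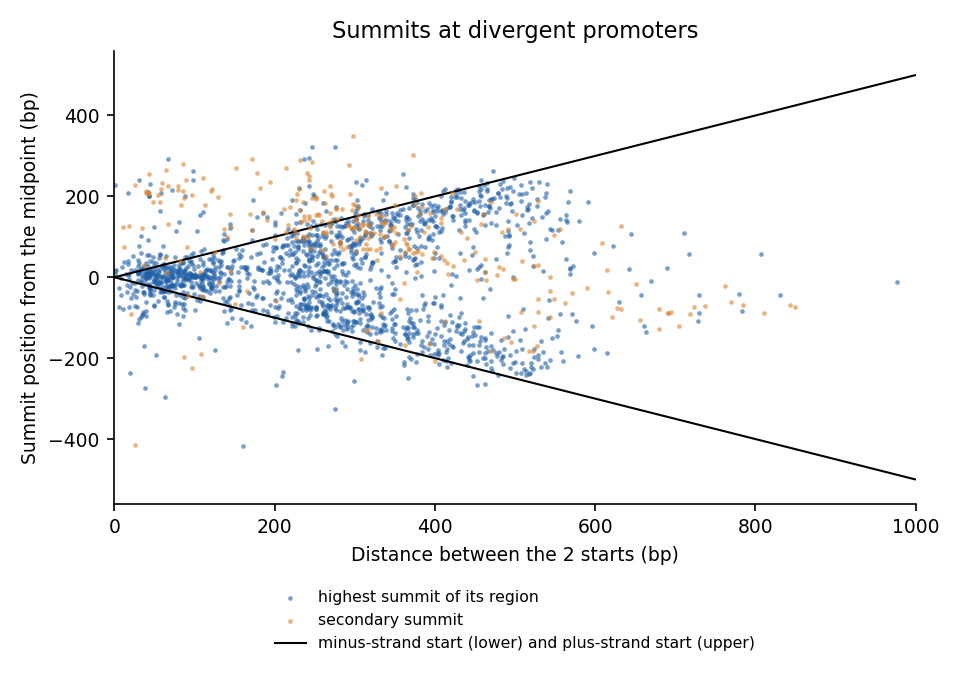
Position of each of the 1901 summits relative to the midpoint between its starts (vertical axis, bp, plus-strand gene upward) against the distance between the starts (horizontal axis, bp), with the starts drawn as black lines. Blue points are the highest summits of their regions and orange points the 295 secondary summits; blue points spread around the midpoint at short distances and follow either line at long ones, and orange points gather at the upper line.

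Signal was highest at intermediate spacing. Median optimal signals were 326 for starts 1 to 50 bp apart, 411 for 51 to 100 bp, 548 for 101 to 200 bp, 456 for 201 to 300 bp, 406 for 301 to 400 bp, 332 for 401 to 500 bp and 280 beyond. Both replicates had their highest median at 101 to 200 bp, with 227 in replicate 3 and 325 in replicate 4. Both had their lowest in the widest class, with 129 in replicate 3 and 184 in replicate 4. The quartile ranges overlapped, at 268 to 1167 for 101 to 200 bp and 140 to 782 for the widest class of 108 regions.

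Most close head-to-head pairs in the annotation carried a summit. Of 1995 pairs with starts at most 500 bp apart, 1506 (75.5%, exact 95% interval 73.5% to 77.4%) had a divergent summit, and the 6318 highest peaks gave 74.7% in replicate 3 and 75% in replicate 4. Counted by gene, 76.1% of the 3815 genes in such pairs had an optimal summit within 500 bp. The share was 46.7% of 1237 genes in pairs 501 to 1000 bp apart and 22.1% of the 8893 in no such pair. With starts at most 500 bp apart the same summit can count for both genes, which can raise their share by construction. The size of this effect was not tested. The background over all 13945 coding genes was 39.0%, and 22.4% of them were at a divergent summit. Of the 471 close pairs with no optimal summit at either start, 50.1% had a peak in the authors' pooled list of 30000, which includes weak peaks.

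**Figure D3:**
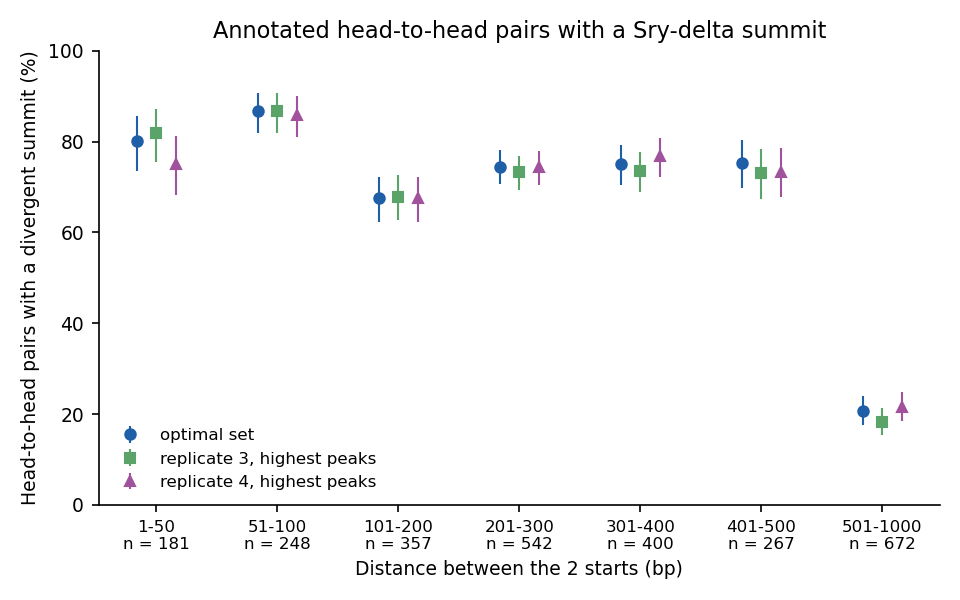
Percent of annotated head-to-head pairs with a divergent summit (vertical axis) by the distance between the starts (horizontal axis, bp, with the number of pairs), in the optimal set and in the 6318 highest peaks of each replicate. Bars are exact 95% intervals; all 3 sets are highest for 51 to 100 bp (86.7% in the optimal set), lower for 101 to 200 bp (67.5%), and lowest beyond 500 bp (20.7%), where fewer positions can meet the rule.

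The share was not even along the range of spacings. It was 80.1% for starts 1 to 50 bp apart, 86.7% for 51 to 100 bp, 67.5% for 101 to 200 bp (exact 95% interval 62.4% to 72.3%), and 74.5%, 75% and 75.3% in the next 3 classes of 100 bp. The pairs 101 to 200 bp apart were thus bound less often than those 51 to 100 bp apart (interval 81.8% to 90.7%) in the optimal set and in each replicate, although the bound ones had the highest median signal. By chromosome arm, the share of close pairs with a summit was 67.3% on 2L, 75.9% on 2R, 71.2% on 3L, 79.2% on 3R, 5 of 7 on the fourth chromosome and 85.1% on the X (interval 80.5% to 89.0%). The X was the highest, and its interval did not overlap those of 2L, 2R or 3L.

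Genes of basic cell machinery were common at these promoters, in lists built from patterns of gene symbols. Such patterns can also take in genes with other functions. Of 76 mitochondrial ribosomal protein genes 52 were at a divergent summit (68.4%), of 26 nuclear pore genes 18 (69.2%), of 32 spliceosome genes 21 (65.6%) and of 54 genes for endosomal sorting and autophagy 30 (55.6%), against the 22.4% of all coding genes. Arrangement moved with these counts: 71.1% of the mitochondrial ribosomal protein genes, 65.4% of the nuclear pore genes and 65.6% of the spliceosome genes were in a close head-to-head pair, against 27.4% of all coding genes. Among genes in such a pair the shares with a summit were 90.7%, 100% and 90.5% for these 3 lists in turn, and 76.1% over all genes. Some other lists were as high, such as cytosolic ribosomal proteins at 97.1% and DNA repair at 92.3%. Others were near the value for all genes, such as the proteasome at 79.2% and cell cycle and mitosis at 80%. Aminoacyl-tRNA synthetases at 71.4% and RNA polymerase subunits at 68.4% were below it. The part of arrangement in the counts was not tested.

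Of 87 cytosolic ribosomal protein genes 79 had a summit of any kind (90.8%, against 39.0% of all coding genes), and 39 of the 87 were at a divergent promoter (44.8%, against 22.4%), with a median signal of 767 at those. Close head-to-head pairs held 40.2% of the 87 genes and 27.4% of all coding genes. Besides RpL32, they included RpL7 (1425 in replicate 3 and 2079 in replicate 4) and RpL13A (1503 and 1787). Among mitochondrial ribosomal protein genes, whose median was 372, mRpL34 followed mRpL47 with 907 in replicate 3 and 1261 in replicate 4.

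Genes for protein turnover and energy supply were also among the members. The proteasome list had 20 of 48 genes at divergent summits, led after Rpn6 by Prosalpha7 (804 in replicate 3 and 987 in replicate 4), and oxidative phosphorylation had 33 of 81. COX6B, for a subunit of cytochrome c oxidase, had 1754 in replicate 3 and 2361 in replicate 4, and ATPsynF, for an ATP synthase subunit, had 1842 and 2208. Lists for ubiquitin and SUMO (21 of 43), vesicle trafficking (31 of 65) and aminoacyl-tRNA synthetases (16 of 33), led by ArgRS (686 and 1029), had shares of 47.7% to 48.8%. Chaperone genes had 14 of 25 and RNA decay genes 15 of 28, against 22.4% of all coding genes. Mitochondrial import had 6 of 17 (35.3%), and its exact 95% interval of 14.2% to 61.7% included that background. Close head-to-head pairs held 50% of the proteasome, 45.7% of the oxidative phosphorylation, 51.2% of the ubiquitin and SUMO and 53.8% of the vesicle trafficking genes. They held 63.6% of the synthetase, 64.3% of the RNA decay, 44% of the chaperone and 29.4% of the mitochondrial import genes. The value for all coding genes was 27.4%, and the part of arrangement was not tested.

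Genes that act on chromosomes were also among the members. The DNA replication list had 16 of 36 genes at divergent summits, among them Psf1, of the GINS complex (1129 in replicate 3 and 1692 in replicate 4), Mcm5, of the replicative helicase (994 and 1398), and Orc5, of the origin recognition complex (1037 and 1147). Of the cohesin, condensin and insulator list 15 of 30 were members and 28 had a summit of any kind. The list includes Dref, which encodes the DRE-binding factor, with 701 in replicate 3 and 729 in replicate 4 at the promoter it shares with RpL13. It also includes Chro, for the chromosomal protein chromator, with 297 in replicate 3 and 919 in replicate 4. Mediator and TFIID had 23 of 45, RNA polymerase subunits 13 of 30, DNA repair 25 of 42, and cell cycle and mitosis 21 of 59, against 22.4% of all coding genes. Translation initiation had 14 of 44 (31.8%), and its exact 95% interval of 18.6% to 47.6% included that background. Close head-to-head pairs held 62.2% of the Mediator and TFIID genes, 63.3% of the RNA polymerase subunit genes and 61.9% of the DNA repair genes. They held 56.7% of the cohesin, condensin and insulator genes and 47.2% of the DNA replication genes. For cell cycle and mitosis the share was 42.4%, for translation initiation 40.9% and for all coding genes 27.4%. The part of arrangement in these counts was not tested.

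Families with narrow expression were nearly missing. Chemosensory receptor genes had 3 of 180 at a divergent summit (1.67%, exact 95% interval 0.345% to 4.79%), namely Ir60e, Ir31a and Gr63a. Cuticle protein genes had 1 of 115, Lcp9, and cytochrome P450 genes 0 of 82, for which the exact interval reached 4.4%. These genes are also seldom in close head-to-head pairs, with 16, 3 and 6 genes so placed. Of those 16 receptor genes, 3 had a summit, against 76.1% of all genes in such pairs. Their 3 partners at Ir60e, Ir31a and Gr63a were CG13585, the pair of CG17768 and LSm-4, and Lamtor4.

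Pairs with a listed gene on both sides were counted at the bound pairs only, and no share over all annotated pairs was worked out. The lists together hold 1276 of the 13945 coding genes. Of the 1645 pairs 424 held a listed gene, 37 held one on each side, and in 3 both genes came from the same list. The highest were MED7, of Mediator, with Cap-H2, of condensin II (957 in replicate 3 and 1450 in replicate 4), and Bub3, of the spindle checkpoint, with Cap-D2, of condensin I (927 and 1320). Next came Vps39/eIF1A, with 821 in replicate 3 and 1081 in replicate 4. Taf10b and Taf10, both TFIID subunits, start 45 bp apart and shared a peak of 828 in replicate 3 and 725 in replicate 4. The other 8 of the highest 12 were mRpL39/Prosbeta2, Dref/RpL13, ATPsynCF6/Sec13, Prosbeta1/Rrp42, TrpRS/Vps16A, RpL28/eIF1, Sec3/COX7B and RpS13/CSN8, with optimal signals of 1040 to 1495. In each of these 8 the genes came from different lists, such as the mitochondrial ribosome and the proteasome at mRpL39/Prosbeta2.

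The motifs of the 6 sequences shown above were frequent under divergent summits and rare beside them. Both strands were searched within 100 bp of the 1606 summits and in flanking windows of the same 201 bp centred 500 bp to each side. DRE was in 20.7% of divergent summits (exact 95% interval 18.8% to 22.8%) and 0.592% of flanks, Motif 1 in 12.6% and 1.06%, Motif 7 in 28.3% and 5.11%, Motif 6 in 13% and 3.46%, and the Sry-delta consensus in 9.03% and 1.28%. In windows of 201 bp at all 13945 coding genes, the shares were 7.39% for DRE, 3.74% for Motif 1, 9.65% for Motif 7, 11.4% for Motif 6 and 3.16% for the consensus. None of the 5 was found at 639 divergent summits (39.8%). DRE and Motif 1 occurred together at 28 (1.74%). Motif 7 and the consensus share letters: 121 of 148 consensus matches (81.8%) contained a Motif 7 match, whereas 23.0% of the 526 Motif 7 matches lay inside a consensus match.

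For 4 of these 5 motifs the interval of the odds ratio between divergent and one-direction summits included 1. DRE was in 20.7% of divergent and 19.0% of one-direction summits, an odds ratio of 1.12 (exact 95% interval 0.953 to 1.31), and among the peaks of rank 1 to 3159 by signal the order turned, with 26.7% and 28.4%. The odds ratio was 1.11 for Motif 1 (0.91 to 1.34), 1.02 for Motif 6 (0.843 to 1.23) and 1.23 for the consensus (0.975 to 1.55). For Motif 7 it was 1.30 (1.13 to 1.5), from shares of 28.3% and 23.3%. The Motif 7 shares were nearly equal within 50 bp of the summit, at 16.8% and 16%, and were 35.7% and 28.4% within 200 bp. Because Motif 7 went with high signal, as described next, the shares among ranks 1 to 3159 were compared too, and there they were 36.4% and 34.3%. Of the other 5 motifs searched, the E-box (CAGCTG) had an odds ratio of 1.25 (1.06 to 1.47) and the TATA box (TATAAA) 1.27 (1.1 to 1.46). The intervals of the Zelda site and the Initiator included 1. The TATA box was in 28.4% of divergent summits and in 37% of windows at all coding genes, the E-box in 19.2% and 11.6%. Within 50 bp of the summit, the E-box was in 10% of divergent and 9.66% of one-direction summits, the TATA box in 13.1% and 10.2%. The GAGA repeat (GAGAGAG), bound by GAGA factor, was in 1.12% of divergent and 3.96% of one-direction summits (odds ratio 0.275, 0.156 to 0.458), and among ranks 1 to 3159 in 1.36% and 2.43%. The intervals cover counting over peaks only, and these ratios were not adjusted for the 10 motifs searched.

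Peaks with a match to Motif 7, to the consensus or to DRE had higher median signals than peaks without one. Divergent peaks with Motif 7 had median signals of 444 in replicate 3 and 573 in replicate 4, and those without one 133 and 187. With a consensus match the medians were 539 and 674, and without one 154 and 222. DRE peaks had 317 in replicate 3 and 396 in replicate 4, and peaks without it 145 and 215. Motif 1 went the other way in both libraries, with 132 and 180 where it was present and 182 and 256 where it was not. Motif 6 did so too, with 136 and 214 where present and 178 and 251 where absent. One-direction peaks had the same order for all 5 motifs in the optimal set. Their medians with and without a match were 889 and 223 for Motif 7, 1009 and 251 for the consensus and 600 and 229 for DRE. For Motif 1 they were 245 and 272, and for Motif 6 237 and 274. In 4 equal groups by signal, low to high, Motif 7 was at 10.9%, 13.5%, 29.2% and 59.7% of members, the consensus at 1.74%, 3.24%, 8.98% and 22.1%, DRE at 8.46%, 17.7%, 24.2% and 32.6%, and Motif 1 at 16.7%, 15%, 10.2% and 8.46%.

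**Figure D4:**
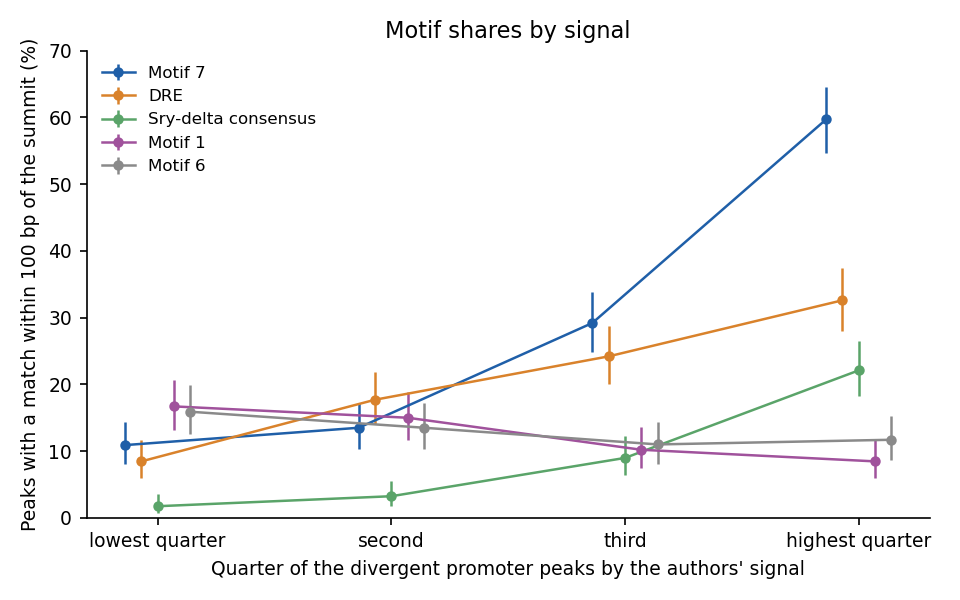
Percent of divergent promoter peaks with each motif within 100 bp of the summit (vertical axis), in 4 equal groups of the 1606 peaks by the authors' signal (horizontal axis, low to high). Points are shares and bars exact 95% intervals; Motif 7 reaches 59.7% in the highest group, DRE 32.6% and the Sry-delta consensus 22.1%, while Motif 1 is at 8.46%.

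The signal differed between the letter forms of Motif 7. The commonest form, CATCTCTA, was in 104 divergent summits (6.48% against 0.218% of flanks), which had median signals of 578 in replicate 3 and 706 in replicate 4. CATCACTA (70 summits) had 611 and 746, and CACCACTA (27 summits) had 719 and 911. By contrast, CAACACTA (39 summits) had medians of 142 in replicate 3 and 205 in replicate 4, close to those of peaks with no match at all. CAGCCCTA (21 summits) had 137 and 230. In the optimal set, the medians of the 4 forms that begin with CAT ran from 1116 to 1419 and those of the 4 that begin with CAC from 1355 to 1619, above the 308 to 703 of the 4 that begin with CAA. The 4 that begin with CAG ran from 389 to 1526. Several forms rest on few summits, such as 10 for CACCCCTA and 8 for CAGCGCTA.

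Motif positions and directions were also taken relative to the starts, in the 1336 regions with the summit between them. Only matches between the starts and within 100 bp of the summit were counted. The 1606 summits lay a median of 46.5 bp from the nearest start, so short distances are partly set by this choice. DRE was centred a median of 32.5 bp upstream of the nearest start (quartiles 18.5 and 48.5), Motif 7 37 bp (17.8 and 68) and Motif 1 31.5 bp. The E-box had the same median as DRE, 32.5 bp, and the TATA box was a median of 104 bp upstream. Motif 7 read in the direction of the nearest gene in 178 of 234 matches (76.1%, exact 95% interval 70.1% to 81.4%). The consensus did so in 12 of 68 (17.6%), since it contains Motif 7 on its opposite strand. Motif 1 showed no such direction, at 54 of 100. As a background for direction, the TATA box read toward the nearest gene in 215 of 414 matches (51.9%).

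Bound and unbound head-to-head pairs differed in sequence as well. Within 150 bp of the midpoint between the starts, DRE was in 21.2% of the 1506 pairs with a divergent summit and 2.97% of the 471 with no optimal summit. Motif 7 was in 26.4% and 12.3% and the consensus in 7.90% and 2.34%, whereas Motif 6 was in 20.1% and 20.8%. The GAGA repeat was in 1.33% of bound and 8.28% of unbound pairs, and the Initiator (TCAGTT), a core element bound by TFIID, in 17.3% and 30.4%. The starts of both kinds of pair were a similar distance apart, with medians of 243 and 249 bp. No match says only that these letters are not in the window.

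A count of all 8192 7-mers, both strands merged, gave the same core without a chosen motif. Windows of 101 bp were centred on the summit and, as flanks, 300 bp to its left and right. By an exact two-sided McNemar test against the right-hand flank, with Benjamini-Hochberg adjustment over all 7-mers, 348 (4.25%) were more frequent at summits and 419 (5.11%) less frequent. Flank shares here are the mean of both sides, while the test used the right-hand flank only. ATCGATA was in 29.1% of summits and 3.11% of flanks, with 2.99% of right-hand flanks (exact adjusted p = 1.01e-93). CTATCGA was in 20.4% of summits and 2.30% of flanks. Of the 15 highest ratios over the flanks 9 contained CGATA, the core of DRE. Outside that core, AGCCCTG was in 5.29% of summits and 0.778% of flanks, with 0.685% of right-hand flanks (exact adjusted p = 4.7e-13). TAGCTAA was in 3.11% and 0.498%, with 0.56% of right-hand flanks (exact adjusted p = 5.53e-06). Among the lowest were AGGAGGA, in 0.187% and 2.52%, and CCTCCTC, in 0.187% and 2.46%. The flanks lie largely in the transcribed parts of both genes: the centre of the right-hand flank was in an exon in 71.0% of regions and the summit in 23.7%, and the part of exon sequence in these differences was not tested.

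Few 7-mers separated divergent from one-direction summits. By a two-sided Fisher exact test on each 7-mer, with the same adjustment, 1 of 8192 (0.0122%) was higher at divergent summits and 1 (0.0122%) lower. TTAAAAA was in 12% of the 1606 divergent and 7.55% of the 2649 one-direction summits (exact adjusted p = 0.015). CTCTCTC, the GAGA repeat read on the other strand, was in 0.187% and 1.51% (exact adjusted p = 0.0206). The first passed with either replicate alone (exact adjusted p = 0.0164 without replicate 3 and 0.00138 without replicate 4), and the second did not pass without replicate 3 (0.103). Against one-direction summits upstream of their start only, neither passed, with adjusted exact p of 0.325 for TTAAAAA and 0.0784 for CTCTCTC. Within 100 bp of the summit TTAAAAA did not pass (Fisher exact adjusted p = 0.0861) and CTCTCTC did (0.000113). With overlapping regions merged neither passed the Fisher exact test (adjusted p of 0.154 and 0.159). At an unadjusted p under 0.05 there were 472 (5.76%). Across the 8192 7-mers, which overlap and share bases, the shares in the 2 classes had a Pearson r of 0.947.

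**Figure D5:**
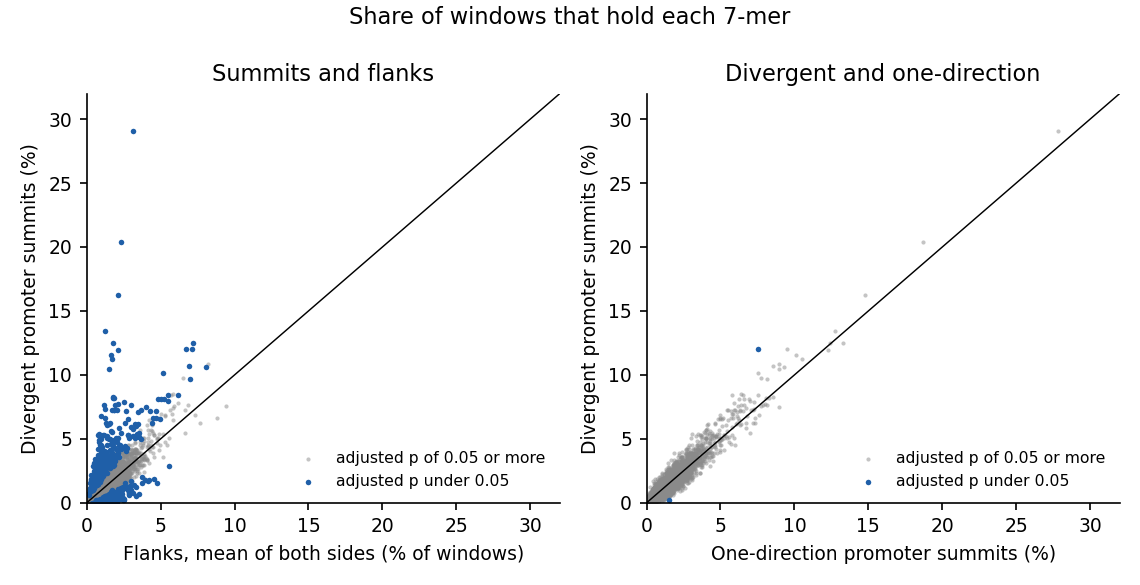
Percent of divergent promoter summits that hold each of the 8192 7-mers in a 101 bp window (vertical axes), against the mean of both flanks (left) and against one-direction promoter summits (right); the line marks equal shares and blue points have an adjusted p under 0.05. Against the flanks 767 points are blue, up to 29.1% of summits, and against one-direction summits 2 are, with the cloud along the line. The colours on the left come from the test against the right-hand flank only.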

How the data were processed

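The deposited files are peak lists in dm6 coordinates for each library, for both pooled and for the optimal set. Each list was called against a control, per the deposited README files, and the optimal set was chosen by the irreproducible discovery rate. The sources used here do not name the caller, aligner or threshold. The signal values are the authors', with 1 scale for each list. Summits were joined to the coding starts of Ensembl release 115 (19607 starts, 13945 genes) and the Release 6 sequence on 6 arms, with Python 3.11.15, pandas 2.3.3 and scipy 1.17.1. Members, lists and motifs were chosen with earlier results of these data known. Shares have exact Clopper-Pearson intervals at 95%, which cover counting error over peaks only. McNemar and Fisher tests on 7-mers were checked on simulated data; peaks are not replicates, and their p-values do not measure the spread between embryo collections. Named genes are those of the 15 highest and 3 lowest members, up to 4 per list, up to 12 pairs with both genes listed, and the pairs whose sequences are shown; 1 gene within these rules is left out. Alternatives covered the window, starts, regions, peak set, flanks and mismatches.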

Additional observations from a re-analysis of the deposited data

How the results depend on the processing

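No paired analysis was possible because there is 1 group of 2 libraries. The number of divergent peaks was 1050 with a window of 250 bp and 1264 among ranks 1 to 3159, and from 1911 to 2018 in the 6318 highest peaks of 1 replicate, classified anew. The percent of close pairs with a summit was 52.4 with 250 bp and 56.8 among those ranks. The ratio of medians, whose SD between the replicate lists was 0.00548, was 1.46 with 250 bp, 1.45 with 1000 bp, 1.37 with 1 start for each gene, 1.5 with 1 summit for each region, 1.14 among those ranks, 1.53 with overlapping regions merged (chosen after seeing the data), and from 1.39 to 1.40 in the replicates. The percent of summits between the starts was 75.5 with 1 start for each gene, 83.2 with 1 summit for each region, 84.3 among those ranks, 84.5 with merged regions, and from 72.2 to 80.1 in the replicates. Within 50 bp and 200 bp of the summit, DRE was at 15.9% and 24.8%, Motif 1 at 7.35% and 17.8%, Motif 6 at 6.60% and 23.3%, Motif 7 at 16.8% and 35.7% and the consensus at 5.04% and 11.6%. Among those ranks DRE was at 26.7%, Motif 7 at 36.4% and the consensus at 12.1%. The consensus was at 1.68% with at most 1 mismatch and 29.7% with at most 3. Against flanks, 226 7-mers were higher and 220 lower among those ranks, 781 and 1275 within 100 bp, and 554 and 785 with flanks 1000 bp away. Between divergent and one-direction summits the higher and lower counts were 2 and 4 within 100 bp, 0 and 0 with merged regions or upstream peaks only, and 1 and 0 with every summit, among those ranks or with 250 bp; in the replicates the lower count was 0 to 1. With at least 0.5 of the length of each member covered, overlap was 92.7% with replicate 3 and 95.7% with replicate 4. In shares against one-direction summits, DRE was lower among ranks 1 to 3159 (26.7% and 28.4%), Motif 1 (7.35% and 7.36%) and Motif 6 (6.60% and 6.61%) within 50 bp, and Motif 6 also with replicate 3 alone (12.5% and 12.6%) and with merged regions (13% and 13.2%). Smaller windows and fewer peaks lower these counts by construction; the cause of the other changes was not tested. Depth is unknown, so no detection limit can be given for pairs without a summit.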
